A study of Rattus norvegicus with 53 samples.

Results

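The 7 genes described here encode proteins of the platelet surface and skeleton: the integrin subunits Itga2b and Itgb3, the glycoproteins Gp5 and Gp9, the receptors Clec1b and Treml1, and the tubulin Tubb1. They were chosen by name, and each was represented by the 1 probe set annotated to it, so that 7 of the 31042 tested probe sets are concerned. Expression was measured on 53 rat arrays of peripheral blood mononuclear cells (PBMCs, the lymphocytes and monocytes of blood) from healthy male BN donors 180 days old. Every culture held 20% plasma or serum and lasted 6 h, so the groups differed in the source of that serum and in what was added to it.

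Sera came from BioBreeding rats, either the lymphopenic DRlyp/lyp line, which develops autoimmune diabetes, or the DR+/+ line, which does not, and from BN rats. At a donor age of 40 days (d40) there were 6 arrays with serum of DRlyp/lyp rats given IL-1RA, the interleukin-1 receptor antagonist, at 350 ug/kg/day for 10 days from day 30, and 6 with serum of DRlyp/lyp rats given PBS. The sample labels of the d40 IL-1RA arrays describe a serum supplemented with IL-1RA, whereas the study design describes treated rats, and the design is followed here. At 60 days (d60) there were 4 arrays with DRlyp/lyp serum plus IL-1RA in the culture, 4 with DRlyp/lyp serum and 4 with DR+/+ serum. Serum of BN rats 180 days old was used autologous with interleukin-1 beta (IL-1B) added (4 arrays), allogeneic, from other BN rats (15 arrays), and autologous without addition (10 arrays).

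Platelets have no nucleus and carry RNA inherited from megakaryocytes, and they accompany mononuclear cells in many blood preparations. Itga2b and Itgb3 pair as integrin alphaIIb-beta3, the fibrinogen receptor through which activated platelets aggregate. Gp5 and Gp9 belong to the GPIb-IX-V complex, which binds von Willebrand factor, and Gp5 is cleaved from the surface by thrombin. Clec1b (CLEC-2) is the receptor for podoplanin, Treml1 (TLT-1) is stored in alpha-granules and reaches the surface on activation, and Tubb1 is the beta-tubulin of the marginal band that keeps the platelet discoid.

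The arrays fell into 2 sets that the labels do not describe. The split was known from earlier work on these data. Ward clustering of all values placed 53 of 53 arrays as stated here, which is no independent check. The first set held 21 arrays, with all d40 cultures, allogeneic replicates 1 to 3 and autologous replicates 1 to 6, and the second held the other 32. Donor age d40 and d60 lay in different sets and cannot be told apart from the set, so comparisons were made within a set. The labels do not say whether replicates were separate animals or cultures, so p-values measure the spread between these arrays, which may be technical. Array medians ran from 5.29 to 5.62 on the log2 scale. Lists of markers of the labelled cells had mean log2 levels per array, over groups, of 7.70 to 8.93 for 11 T cell markers, 7.54 to 9.18 for 5 B cell markers and 5.96 to 7.82 for 10 monocyte markers. Not every marker lay above the array medians, with the monocyte markers Cd163 at 3.44 and Fcgr3a at 4.83. The 7 erythroid markers, of cells outside the label, averaged 7.78 to 9.86.

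Promoter windows show what the genes share in sequence near their starts. Of the 7 genes, 6 had a window of 250 bases before to 50 bases after the start in the RefSeq table (build GRCr8), and Itgb3 had none. The GATA letters searched were AGATAA or AGATAG with either A or T as first base, and the ETS letters were AGGAAG or the same with C as first base, on both strands. The windows of 3 of 6 genes held GATA letters, as did 29.9% of 27457 rat promoter windows, and 5 of 6 held ETS letters, against 45.9% of all windows. Both kinds stood in 3 of 6 windows and in 12.7% of all, and no GATA match overlapped an ETS match. A match is a description of letters only. The 4 windows printed belong to Itga2b (chr10:87925784-87926083, minus strand), Gp5 (chr11:83948257-83948556, plus strand), Clec1b (chr4:164533859-164534158, plus strand) and Treml1 (chr9:20139884-20140183, minus strand), chosen to show a gene with both kinds of match for each of 3 roles and a gene with neither. They are written 5′ to 3′ on the strand of the gene, with the matched letters in capitals.
Itga2b: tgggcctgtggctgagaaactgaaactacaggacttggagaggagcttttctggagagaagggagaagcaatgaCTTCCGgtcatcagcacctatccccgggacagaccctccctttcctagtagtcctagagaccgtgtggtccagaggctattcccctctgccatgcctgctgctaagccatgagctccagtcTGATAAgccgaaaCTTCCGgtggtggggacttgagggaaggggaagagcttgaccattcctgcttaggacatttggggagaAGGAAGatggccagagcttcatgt
Gp5: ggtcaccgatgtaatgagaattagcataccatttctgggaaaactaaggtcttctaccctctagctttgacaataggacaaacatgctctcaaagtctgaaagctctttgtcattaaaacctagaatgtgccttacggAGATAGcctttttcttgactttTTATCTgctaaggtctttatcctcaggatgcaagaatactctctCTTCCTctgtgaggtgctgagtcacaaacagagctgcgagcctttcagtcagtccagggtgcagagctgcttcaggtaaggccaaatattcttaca
Clec1b: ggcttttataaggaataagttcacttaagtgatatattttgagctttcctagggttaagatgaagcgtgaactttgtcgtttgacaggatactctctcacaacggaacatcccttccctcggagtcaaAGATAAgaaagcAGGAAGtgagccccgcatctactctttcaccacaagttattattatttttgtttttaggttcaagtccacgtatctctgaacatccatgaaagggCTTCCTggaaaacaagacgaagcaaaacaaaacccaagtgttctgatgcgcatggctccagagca
Treml1: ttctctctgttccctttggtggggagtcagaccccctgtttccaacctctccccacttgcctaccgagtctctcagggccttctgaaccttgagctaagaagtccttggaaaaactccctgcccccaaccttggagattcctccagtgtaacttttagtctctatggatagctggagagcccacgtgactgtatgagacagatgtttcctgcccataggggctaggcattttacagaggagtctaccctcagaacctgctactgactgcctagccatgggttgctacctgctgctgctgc

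The Itga2b window held 1 GATA match and 3 ETS matches, the Gp5 window 2 and 1, the Clec1b window 1 and 2, and the Treml1 window 0 of either. Gp9 (3 ETS matches) and Tubb1 (1 ETS match) held 0 GATA matches in these windows.

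Values below are log2 expression per probe set, and cultures are named by their serum. Itga2b, the alphaIIb subunit, lay between 8.49 and 12.23 over the 53 arrays. In the second set its values were 11.31, 11.43, 10.98 and 11.10 with d60 DRlyp/lyp serum plus IL-1RA, 11.35, 11.50, 10.53 and 10.90 with d60 DRlyp/lyp serum, and 11.48, 11.43, 10.78 and 8.49 with d60 DR+/+ serum, each in the order of replicates 1 to 4. IL-1B cultures had 11.94, 12.21, 10.44 and 12.21, allogeneic cultures ran from 9.82 over a median of 11.29 to 11.88, and autologous cultures had 11.79, 12.23, 11.04 and 11.59. All groups overlapped, and DR+/+ replicate 4 was lower than every other array of the study. In the first set the lowest, median and highest values were 10.80, 11.28 and 11.63 with d40 IL-1RA serum, 10.54, 11.29 and 11.68 with d40 PBS serum and 10.46, 11.50 and 11.79 with autologous serum, and the 3 allogeneic arrays averaged 10.74 ± 0.77 (SD), from 9.88 to 11.35. These 4 groups overlapped as well.

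Itgb3, the beta3 subunit, followed Itga2b closely. With d60 DRlyp/lyp serum plus IL-1RA it had 11.59, 11.40, 11.26 and 10.97, with d60 DRlyp/lyp serum 11.22, 11.39, 10.48 and 11.04, and with d60 DR+/+ serum 11.25, 11.67, 10.91 and 9.39. The IL-1B arrays had 11.92, 12.16, 10.98 and 12.19, the 12 allogeneic arrays ran from 10.48 over 11.69 to 12.04, and the autologous arrays had 12.08, 12.07, 10.93 and 11.72. Replicate 3 was the lowest with d60 DRlyp/lyp serum and with IL-1B, and DR+/+ replicate 4 was again the lowest array of all. Group means in the first set were 11.70 ± 0.30 (SD, n = 6) with d40 IL-1RA serum, 11.53 ± 0.31 (n = 6) with d40 PBS serum, 11.28 ± 0.17 (n = 3) with allogeneic serum and 11.65 ± 0.39 (n = 6) with autologous serum. The groups overlapped, though the allogeneic arrays reached only 11.48, below the other 3 means.

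Gp5, the thrombin-cleaved glycoprotein, lay between 5.26 and 8.22. Its mean of 6.97 was the lowest of the 7 genes, at percentile 71.1 of all probe set means, with Gp9 next at 88. The value of 5.26, in DR+/+ replicate 4, lay below that array's median of 5.515. Its second-set values were 6.99, 6.75, 6.83 and 7.01 with d60 DRlyp/lyp serum plus IL-1RA, 6.99, 7.11, 5.92 and 7.14 with d60 DRlyp/lyp serum, and 6.92, 6.89, 6.74 and 5.26 with d60 DR+/+ serum. BN sera gave 7.75, 8.13, 6.68 and 8.00 with IL-1B, 6.78 to 8.22 (median 7.71, n = 12) when allogeneic, and 8.08, 7.74, 6.94 and 7.96 when autologous. The 4 DR+/+ arrays all lay below the 4 autologous ones, though the nearest values, 6.92 and 6.94, almost met. In order of second-set means, Gp5 was lowest with DR+/+ serum (6.45), then DRlyp/lyp (6.79), DRlyp/lyp plus IL-1RA (6.90), allogeneic (7.64) and IL-1B (7.64), and highest with autologous serum (7.68), and only the step between 6.90 and 7.64 exceeded the SD of both neighbours. In the first set Gp5 had means of 6.37 ± 0.42 (SD, n = 6) with d40 IL-1RA serum, 6.43 ± 0.36 (n = 6) with d40 PBS serum, 6.33 ± 0.17 (n = 3) with allogeneic serum and 6.65 ± 0.35 (n = 6) with autologous serum, and these groups overlapped.

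Gp9, a small subunit needed for the GPIb complex to reach the surface, varied most from culture to culture, with a residual SD of 0.86 around the group means. Second-set means ± SD were 8.69 ± 1.08 with d60 DRlyp/lyp serum plus IL-1RA, 8.65 ± 0.80 with d60 DRlyp/lyp serum, 8.10 ± 1.15 with d60 DR+/+ serum and 9.28 ± 1.37 with IL-1B (n = 4 each), 8.85 ± 0.87 with allogeneic serum (n = 12) and 9.38 ± 1.26 with autologous serum (n = 4). First-set means were 8.16 ± 0.46 with d40 IL-1RA serum, 8.14 ± 0.45 with d40 PBS serum (n = 6 each), 7.75 ± 0.28 with allogeneic serum (n = 3) and 8.57 ± 0.51 with autologous serum (n = 6). Neighbouring means of Gp9 differed by less than the larger of their SDs in both sets.

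Clec1b, the podoplanin receptor, ranged from 10.14 to 13.45. In the second set it had 12.81, 12.67, 11.18 and 11.83 with d60 DRlyp/lyp serum plus IL-1RA, 12.49, 12.64, 11.11 and 11.66 with d60 DRlyp/lyp serum and 12.29, 12.49, 10.89 and 13.18 with d60 DR+/+ serum. The IL-1B arrays had 12.80, 13.05, 11.18 and 12.45, the allogeneic arrays ran from 10.14 over 12.04 to 12.85, and the autologous arrays had 12.89, 13.06, 11.69 and 12.13. DR+/+ replicate 4, the lowest DR+/+ array for 6 of the 7 genes, held the highest Clec1b value of the second set. First-set means were 12.80 ± 0.49 with d40 IL-1RA serum, 12.57 ± 0.64 with d40 PBS serum (SD, n = 6 each), 12.52 ± 0.56 with allogeneic serum (n = 3) and 12.96 ± 0.63 with autologous serum (n = 6).

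Treml1, the alpha-granule receptor, had 10.99, 10.85, 10.27 and 10.66 with d60 DRlyp/lyp serum plus IL-1RA, 10.84, 10.92, 9.62 and 10.85 with d60 DRlyp/lyp serum, and 10.54, 10.83, 10.09 and 8.52 with d60 DR+/+ serum. Its values were 11.46, 11.93, 10.18 and 11.56 with IL-1B, 9.79 to 11.58 (median 11.06, n = 12) with allogeneic serum and 11.68, 11.73, 10.64 and 11.34 with autologous serum. The d60 sera gave means below those of the BN sera, with overlap in every pair. In the first set Treml1 averaged 10.10 ± 0.35 with d40 IL-1RA serum, 10.13 ± 0.55 with d40 PBS serum (SD, n = 6 each), 9.51 ± 0.48 with allogeneic serum (n = 3) and 10.38 ± 0.62 with autologous serum (n = 6).

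Tubb1, the marginal band tubulin, was the least variable after Itgb3 and Gp5, with a residual SD of 0.50, against 0.47 for both. Second-set means ± SD were 12.55 ± 0.13 with d60 DRlyp/lyp serum plus IL-1RA, 12.13 ± 0.74 with d60 DRlyp/lyp serum, 11.95 ± 0.96 with d60 DR+/+ serum and 12.61 ± 0.47 with IL-1B (n = 4 each), 12.24 ± 0.56 with allogeneic serum (n = 12) and 12.80 ± 0.27 with autologous serum (n = 4). The wide spread with DR+/+ serum came with replicate 4 at 10.51, and the next array was at 12.31. In the first set Tubb1 had 12.19 ± 0.29 with d40 IL-1RA serum, 11.89 ± 0.43 with d40 PBS serum (n = 6 each), 11.51 ± 0.50 with allogeneic serum (n = 3) and 12.32 ± 0.22 with autologous serum (n = 6). With groups ordered by mean, neighbours differed by less than the larger of their SDs for all 7 genes in both sets, apart from that step of Gp5 and, for Treml1 in the first set, the step between allogeneic (9.51) and d40 IL-1RA serum (10.10).

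**Figure D1:**
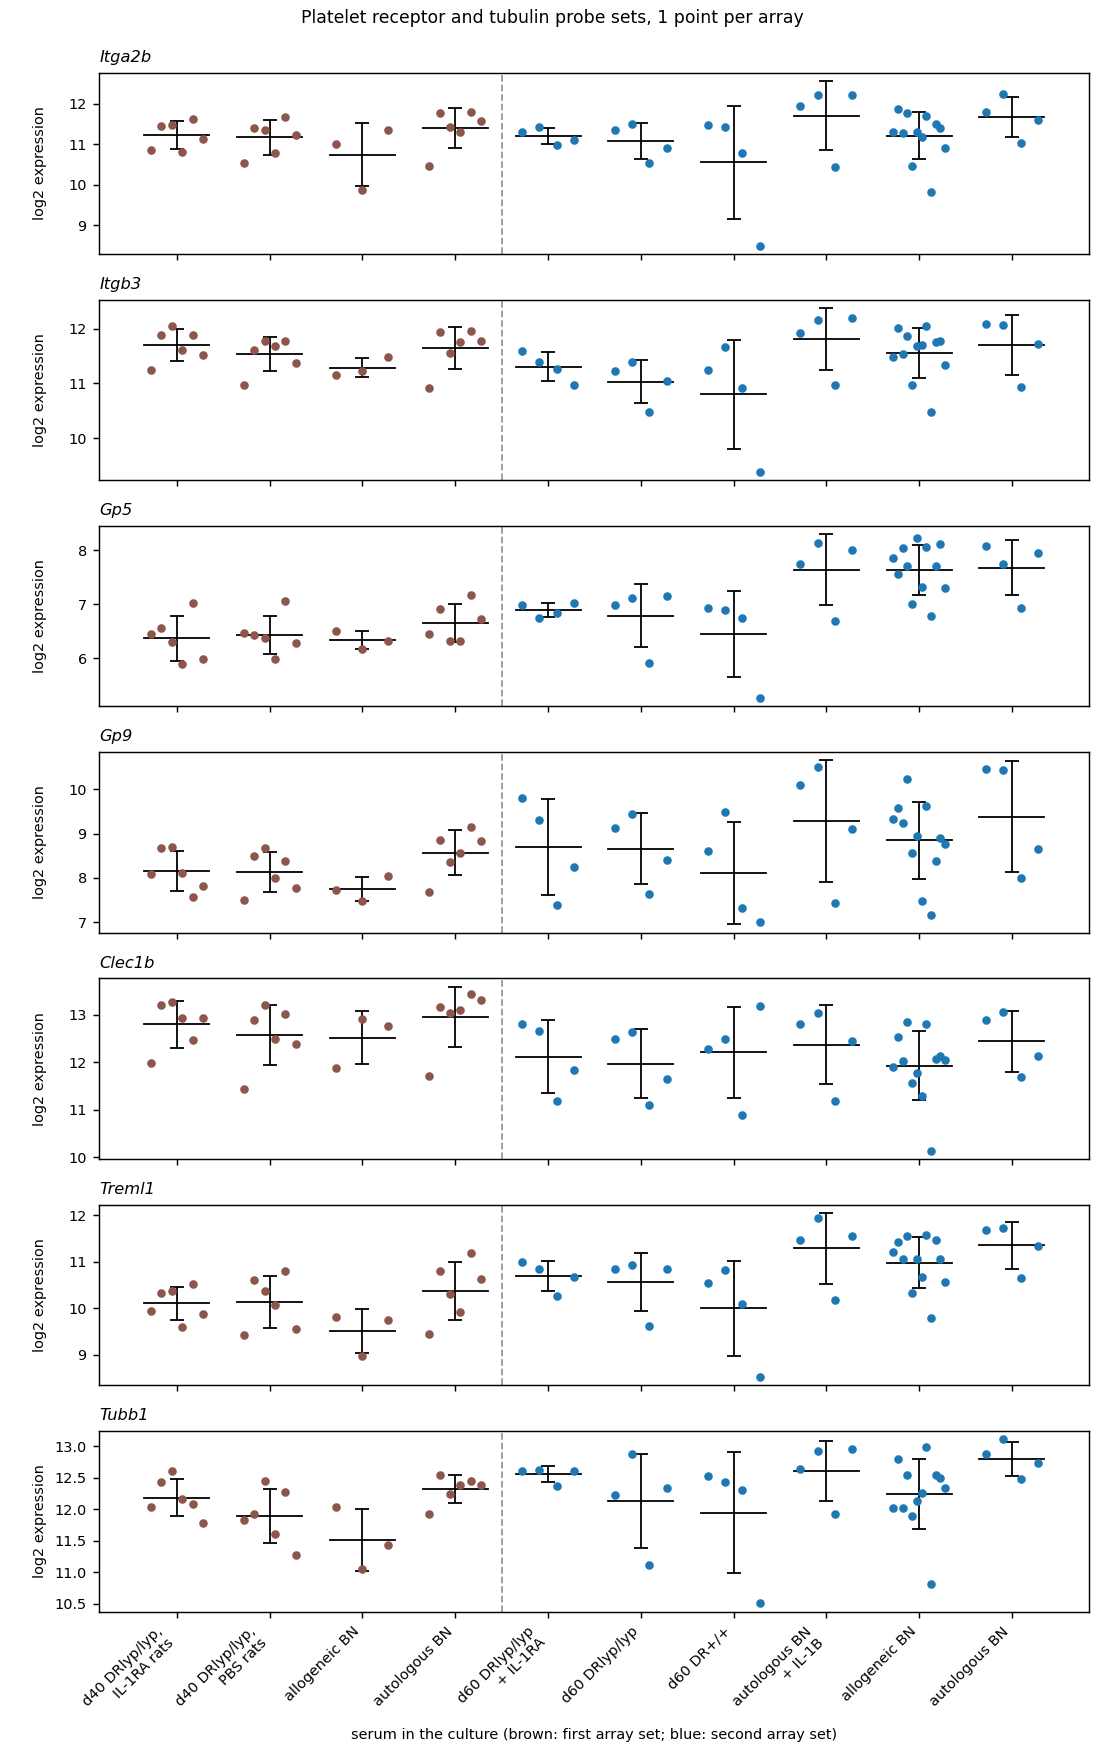
Log2 expression (vertical axis) of the 7 probe sets, 1 point per array, by the serum in the culture (horizontal axis), with first-set arrays in brown and second-set arrays in blue. Lines and bars give the mean ± SD, and points run in the order of replicate numbers; d60 DR+/+ replicate 4 is the lowest array for Itga2b (8.49), Itgb3 (9.39) and Tubb1 (10.51) and the highest of the second set for Clec1b (13.18).

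Serum of d60 DR+/+ rats was set against autologous serum, the cells' own. These sera differed in donor strain, in donor age (60 against 180 days) and in being autologous or not, which cannot be told apart. The same holds for the DRlyp/lyp sera against autologous serum, and strain and donor age stay confounded against allogeneic BN serum. Gp5 fell, with 6.45 ± 0.80 with DR+/+ serum and 7.68 ± 0.51 with autologous serum (SD, n = 4 each), a log2 difference of -1.22 (SE 0.32, 0.43-fold, limma adjusted p = 0.0368). It was the 1 of 7 genes called in either direction, beside 1.35% of all probe sets, and the 1 of 7 called lower, beside 0.377%. A gene is called at a Benjamini-Hochberg adjusted p under 0.05 in limma over the 31042 probe sets. All 7 differences were negative, with a median of -1.12 against -0.05 over all probe sets. Treml1 differed by -1.35 (adjusted p = 0.0662), Gp9 by -1.28 (0.257), Itga2b by -1.12 (0.170), Itgb3 by -0.90 (0.141), Tubb1 by -0.85 (0.197) and Clec1b by -0.23 (0.846), and none of these 6 passed. In bulk RNA, fewer platelets in a culture and less of these RNAs per platelet cannot be told apart.

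The Gp5 call against autologous serum depended on single arrays. Without DR+/+ replicate 4 the difference was -0.83 (limma adjusted p = 0.143) and 0 of 7 genes were called, and the median of the 7 was -0.55, with 7 of 7 still negative. The call was also lost without autologous replicate 7 (-1.09, adjusted p = 0.230), 8 (-1.20, 0.113) or 10 (-1.13, 0.0759). Leaving out autologous replicate 9 added Itgb3 (-1.15, 0.0397) and Treml1 (-1.59, 0.0252), and leaving out DR+/+ replicate 2 added the same pair (-1.18, 0.0468 and -1.63, 0.0305).

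Of 10 monocyte markers, 2 were called higher with DR+/+ serum, where 0.97% of all probe sets were called higher. Mpeg1 was higher by 2.23 (SE 0.41, limma adjusted p = 0.00235) and Cd14 by 1.70 (SE 0.43, 0.0310), and the list's median difference was 0.60, with 3 of 10 negative. The mean level of that list was 7.41 to 7.76 in the 4 DR+/+ arrays and 6.72 to 7.29 in the 4 autologous arrays. Of 8 natural killer cell markers 1 was called lower, the granzyme Gzmb (-0.63, SE 0.16, limma adjusted p = 0.0262), 6 of 8 were negative and the median was -0.35. Calls were made for 0 of 11 T cell markers (7 negative, median -0.18), 0 of 7 erythroid markers (6 negative, median -0.26), 0 of 5 B cell markers (2 negative, median 0.10), 0 of 7 neutrophil markers (3 negative, median 0.05) and 0 of 7 endothelial markers (4 negative, median -0.02). The part of these cells in the platelet gene values was not tested.

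Against allogeneic serum, the other BN serum of the second set, 3 platelet genes fell with d60 DR+/+ serum. Gp5 averaged 6.45 ± 0.80 with DR+/+ serum (SD, n = 4) and 7.64 ± 0.46 with allogeneic serum (n = 12), a difference of -1.19 (SE 0.26, 0.44-fold, limma adjusted p = 0.00142). Treml1 differed by -0.98 (SE 0.32, adjusted p = 0.0231) and Itgb3 by -0.75 (SE 0.26, 0.0313). The 3 of 7 stand beside 25.5% of all probe sets called in either direction and 12.2% called lower. Itga2b (-0.66, adjusted p = 0.144), Gp9 (-0.74, 0.223), Tubb1 (-0.29, 0.436) and Clec1b (0.28, 0.589) did not pass, and the median of the 7 was -0.74, against -0.05 over all probe sets. Without DR+/+ replicate 4, Gp5 was still called (-0.79, adjusted p = 0.0209), while Treml1 (-0.49, 0.231) and Itgb3 (-0.27, 0.390) were not. The median of the 7 was then -0.27, with Gp9 at -0.37, Clec1b at -0.04, Itga2b at 0.02 and Tubb1 at 0.19. Without DR+/+ replicate 3 those 2 genes also missed the threshold, Treml1 at an adjusted p of 0.0558 and Itgb3 at 0.0678.

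Serum of d60 DRlyp/lyp rats gave the same direction for Gp5. With 6.79 ± 0.59 with DRlyp/lyp serum (SD, n = 4) and 7.64 ± 0.46 with allogeneic serum (n = 12), Gp5 fell by 0.85 on the log2 scale (SE 0.26, 0.55-fold, limma adjusted p = 0.0188). It was the 1 gene of 7 called, where 21.5% of all probe sets were called in either direction and 9.38% lower, and the groups overlapped. Itgb3 followed at -0.52 (adjusted p = 0.136), Treml1 at -0.42 (0.339) and Gp9 at -0.19 (0.781), while Clec1b was at 0.05 (0.937). The Gp5 call was lost without DRlyp/lyp replicate 3 (-0.56, adjusted p = 0.189) or replicate 1 (-0.92, 0.0545). Both comparisons with allogeneic serum share those 12 arrays. Of the 10 monocyte markers, 5 were called higher and 0 lower in each, where 12.1% of all probe sets were called higher with DRlyp/lyp serum and 13.3% with DR+/+ serum.

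Against autologous serum, d60 DRlyp/lyp serum gave 0 called genes of 7 in limma, beside 0.0354% of all probe sets, and 2 of 7 had an unadjusted p under 0.05. Gp5 differed by -0.89 (95% interval -1.53 to -0.24, adjusted p = 0.684), Treml1 by -0.79 (-1.59 to 0.01) and Gp9 by -0.73 (-1.87 to 0.41). The other 4 lay between -0.67 and -0.47, so all 7 were negative, with a median of -0.67 against -0.02 over all probe sets. Adjusted p-values ran from 0.684 to 0.878. This fit was unpaired, as the groups share no replicate number.

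The direct comparison of the BioBreeding lines, d60 DRlyp/lyp against DR+/+ serum, called 0 of 7 genes in limma, 0 of 7 at an unadjusted p under 0.05, and 0% of all probe sets. This fit did not pair arrays by replicate number. Itga2b differed by 0.53 (95% interval -0.32 to 1.38), Treml1 by 0.56 (-0.23 to 1.36) and Gp5 by 0.34 (-0.31 to 0.98). Only Clec1b was lower with DRlyp/lyp serum, by -0.24 (-1.17 to 0.70). Without DR+/+ replicate 4 the median of the 7 genes was -0.06, against 0.34 with it, and 4 of 7 were negative rather than 1. The intervals leave room for a difference of 1 log2 unit for several of these genes.

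Interleukin-1 was added or blocked in 3 ways, to test what it contributes to the serum response, and 0 of the 7 genes passed in any. Adding IL-1RA to d60 DRlyp/lyp serum called 0% of all probe sets and 0 of 7 genes, with 0 at an unadjusted p under 0.05. Tubb1 was 0.42 higher (95% interval -0.26 to 1.11) and Gp5 0.11 higher (-0.54 to 0.75) with IL-1RA than without, and all limma adjusted p-values were 1.00. The same serum plus IL-1RA, against autologous serum, called 0 of 7 genes beside 0.0548% of all probe sets, with 1 of 7, Gp5 at -0.78 (adjusted p = 0.438), at an unadjusted p under 0.05.

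IL-1B in autologous serum called 0 of 7 genes in limma and 0% of all probe sets, and 0 of 7 had an unadjusted p under 0.05. Gp5 differed by -0.04 (95% interval -0.68 to 0.61), Itga2b by 0.04 (-0.81 to 0.89) and Clec1b by -0.07 (-1.01 to 0.86). The median of the 7 was -0.07, against -0.03 over all probe sets. Replicate 3 was the lowest of the 4 IL-1B arrays for 7 of 7 genes.

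**Figure D2:**
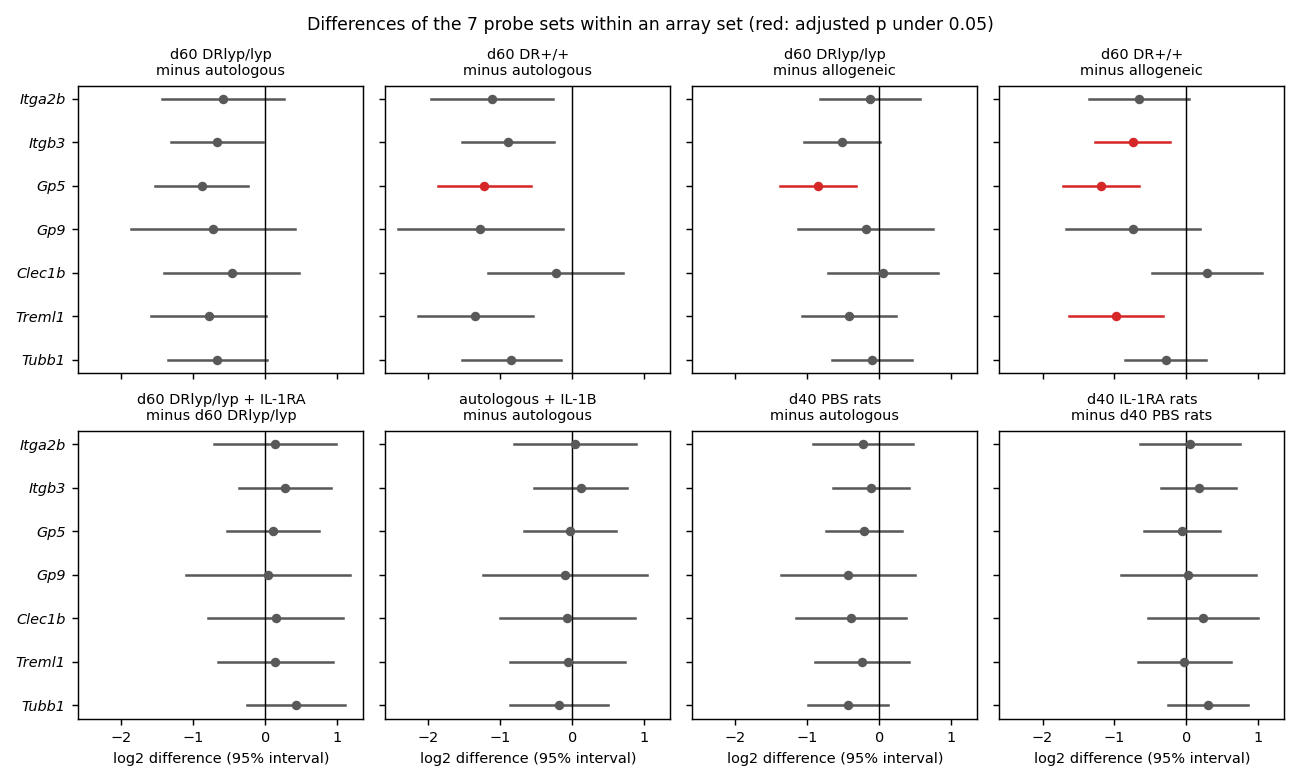
Log2 differences (horizontal axis, first-named group minus the other) of the 7 probe sets (vertical axis) in 8 comparisons within an array set, with 95% intervals from limma and red for an adjusted p under 0.05. Gp5 is red in 3 panels, at -1.22, -0.85 and -1.19, and Itgb3 and Treml1 in 1, and the lower 4 panels have no red point, with 7 of 7 differences below 0 for d40 PBS rats.

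Sera of d40 DRlyp/lyp rats, all in the first set, moved none of the 7 genes past the threshold. Serum of PBS-treated rats against autologous serum called 0 of 7 genes and 0% of all probe sets, with 0 of 7 at an unadjusted p under 0.05. Gp5 differed by -0.21 (95% interval -0.74 to 0.31), Tubb1 by -0.43 (-0.99 to 0.12) and Gp9 by -0.43 (-1.37 to 0.50), and the median of the 7 was -0.25, against 0.02 over all probe sets. Serum of IL-1RA-treated rats against autologous serum also called 0 of 7 genes and 0% of all probe sets, with Gp5 at -0.28 (-0.80 to 0.25). IL-1RA-treated against PBS-treated rats called 0 of 7, beside 0.00322% of all probe sets. Tubb1 was 0.30 higher (-0.26 to 0.85) and Clec1b 0.23 higher (-0.54 to 0.99) with serum of IL-1RA-treated rats, and Gp5 differed by -0.06 (-0.59 to 0.46). Neither of the last 2 comparisons had a gene of the 7 at an unadjusted p under 0.05 in this fit, which did not pair arrays by replicate number. With arrays paired by number, IL-1RA-treated against PBS-treated rats gave limma adjusted p-values from 0.283 to 0.977. Unadjusted p-values of the paired fit are not given here.

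Allogeneic against autologous serum was measured in both sets. In the second set 0 of 7 genes were called beside 0.00966% of all probe sets, Tubb1 alone had an unadjusted p under 0.05 (-0.56, limma adjusted p = 0.283), and Gp5 was at -0.04 (95% interval -0.56 to 0.49). In the first set 0 of 7 were called beside 1.07% of all probe sets. Treml1 (-0.87, adjusted p = 0.385) and Tubb1 (-0.81, 0.317) had an unadjusted p under 0.05 there. All 7 differences were negative in either set, with medians of -0.46 in the second and -0.65 in the first. The difference between the sets in this contrast was called for 0 of 7 genes, with 0 at an unadjusted p under 0.05, beside 0.696% of all probe sets, and Treml1 had the largest at -0.50 (-1.53 to 0.53).

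Autologous cultures differed between the sets in Gp5 and Treml1. Gp5 averaged 6.65 ± 0.35 in the first set (SD, n = 6) and 7.68 ± 0.51 in the second (n = 4), a difference of -1.03 (SE 0.29, limma adjusted p = 0.00300). Treml1 differed by -0.97 (SE 0.36, adjusted p = 0.0217). The 2 of 7 called, both lower, stand beside 55% of all probe sets called in either direction and 35.5% called lower, so as a share they are not above the background. Clec1b was the 1 gene with a positive difference, 0.52 (adjusted p = 0.297). All probe sets had a median of -0.16 in this comparison. With each array centred on its median, Gp5 differed by -0.89 (adjusted p = 0.00917), Treml1 by -0.83 (0.0527), Clec1b by 0.66 (0.199) and Itgb3 by 0.08 (0.831), against -0.05 for Itgb3 without centring. Treml1 also missed the threshold without autologous replicate 1 (-0.78, 0.0633), 7 (-0.86, 0.0719) or 8 (-0.84, 0.0753), and Gp9 passed it without replicate 9 (-1.28, 0.0459). The actin 3′ minus 5′ difference, which grows as RNA is degraded, averaged 3.58 ± 0.76 in the first set (SD, n = 21) and 2.58 ± 0.40 in the second (n = 32).

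Within groups, the genes moved together. In deviations from the group mean over the 32 second-set arrays, Itga2b correlated with Itgb3 at r = 0.96 and with Treml1 at 0.95, and Itgb3 with Treml1 at 0.94. Gp9 with Clec1b reached 0.81, while Clec1b with Itga2b was at 0.46. Without DR+/+ replicate 4, over 31 arrays, Clec1b correlated with Itga2b at 0.88 and with Gp9 at 0.94. In the 21 first-set arrays Itga2b and Treml1 correlated at 0.86, as did Itgb3 and Clec1b, whereas Gp5 and Clec1b stood at 0.08. These are descriptions over arrays that share their RNA between genes, and the arrays of a set also share its processing.

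**Figure D3:**
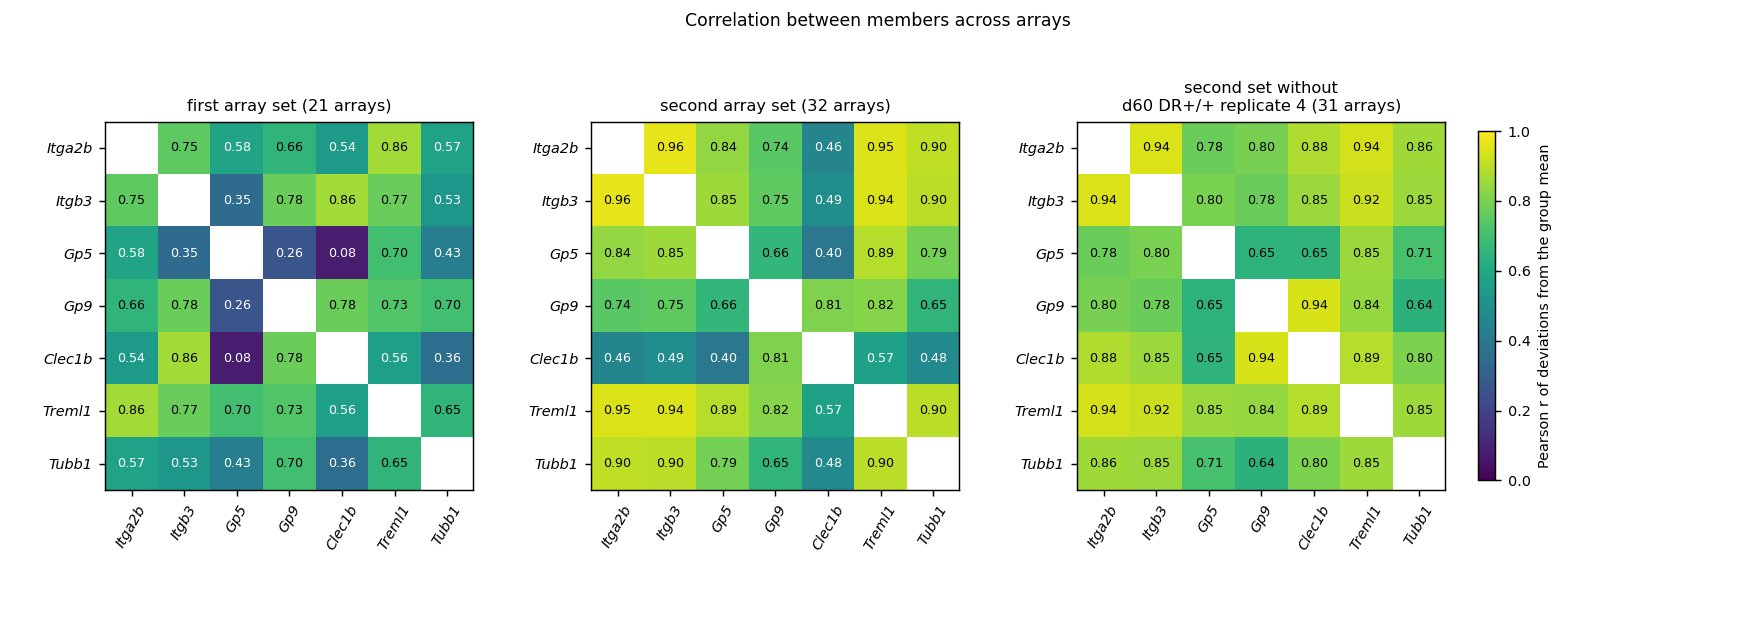
Pearson r between the 7 genes, in deviations of each array from its group mean, with the genes on both axes, for the first set (21 arrays), the second set (32 arrays) and the second set without d60 DR+/+ replicate 4 (31 arrays). Clec1b correlates more with the others when that array is left out, with Itga2b at 0.46 with it and 0.88 without it.

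The low arrays recurred under the same replicate number. Replicate 3 was the lowest array for 7 of 7 genes with d60 DRlyp/lyp serum, for 5 of 7 with d60 DRlyp/lyp serum plus IL-1RA and for 7 of 7 with IL-1B. With DR+/+ serum replicate 4 was lowest for 6 of 7 and replicate 3 for the other, Clec1b. Gp9 was at 7.40, 7.65, 7.33 and 7.43 in replicate 3 of the DRlyp/lyp plus IL-1RA, DRlyp/lyp, DR+/+ and IL-1B cultures. In replicate 2 of the same cultures Gp9 was at 9.32, 9.44, 9.48 and 10.51. In the first set replicate 1 was lowest for 2 of 7 genes with d40 IL-1RA serum, where replicate 4 was lowest for 3, 5 of 7 with d40 PBS serum and 6 of 7 with autologous serum. There Clec1b had 11.98, 11.44 and 11.71 in replicate 1 of these 3 groups, while their medians were 12.93, 12.70 and 13.13. The labels do not say what a replicate number stands for.

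**Figure D4:**
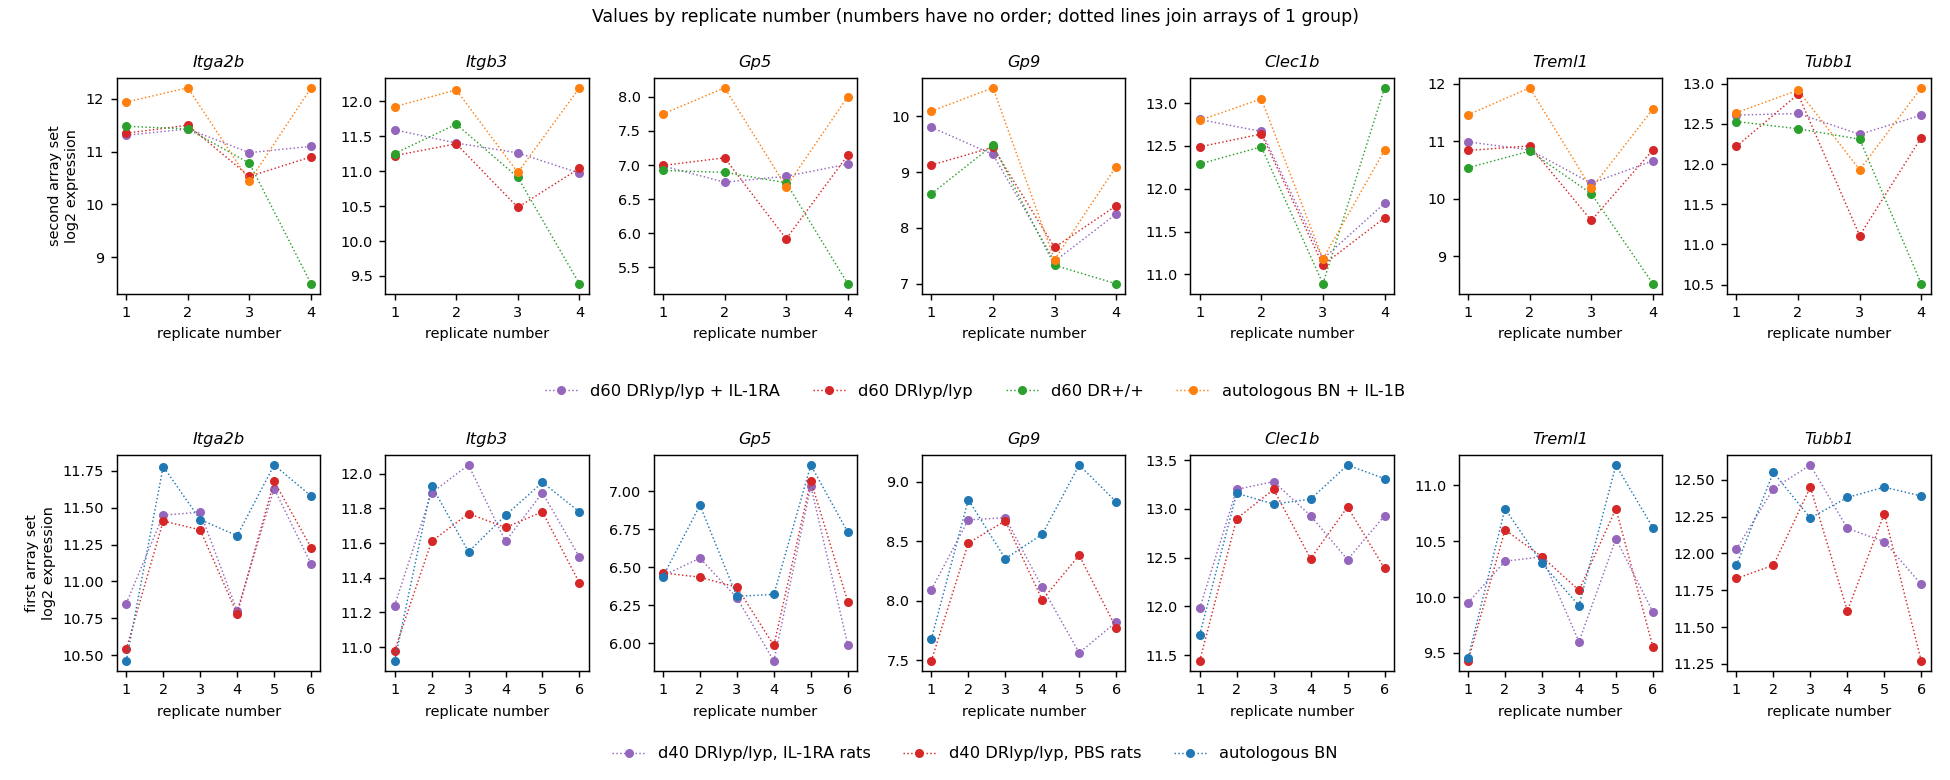
Log2 expression (vertical axis) of the 7 genes by replicate number (horizontal axis) in the second-set groups of 4 arrays (top) and the first-set groups of 6 arrays (bottom), coloured by serum. Replicate 3 is low across sera in the top row for Clec1b (10.89 to 11.18), and replicate 1 in the bottom row (11.44 to 11.98); the numbers have no order.

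Autologous replicate 9 and allogeneic replicate 12 were the lowest arrays of their second-set groups for 7 of 7 genes. In allogeneic replicate 12 Clec1b was at 10.14, Itga2b at 9.82 and Tubb1 at 10.82, each the lowest of 12. Gp5 at 6.78 in that array was close to the d60 values.

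d60 DR+/+ replicate 4 stood apart in more than these genes. The SD of its deviations from the group mean over all probe sets was 0.55, against at most 0.40 in the other 52 arrays. Its actin 3′ minus 5′ difference was 1.13, where the other 31 second-set arrays were at 2.14 or more. With that difference as a covariate, Gp5 differed from autologous serum by -1.13 (limma adjusted p = 0.0554). The mean level of 18 cytoskeletal platelet genes was 7.87 in this array and 8.64 to 8.82 in the other 3 DR+/+ arrays, and that of 25 signalling genes 7.41 and 7.97 to 8.29, while 7 neutrophil markers averaged 6.2 in it and 5.10 to 5.65 in the others. First-set allogeneic replicate 2, with the lowest actin difference of its set at 0.76, was lowest of 3 for Itga2b (9.88), Gp5 (6.16), Gp9 (7.48), Treml1 (8.96) and Tubb1 (11.06) and highest for Clec1b (12.91). Itgb3 at 11.22 was not lowest there, as replicate 1 had 11.15. The GAPDH 3′ minus 5′ difference was 3.22 in that array, where first-set autologous replicate 5 had 2.22. In DR+/+ replicate 4 it was 1.63, where the other 31 second-set arrays were at 2.14 or more. The actin difference grows as RNA is degraded, and these 2 arrays had the lowest of their sets. The part of RNA quality in them was not tested beyond that covariate.

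For each of the 7, the 3 named genes with the most similar deviations over 53 arrays were found, the other members included. Itga2b was closest to Treml1 (r = 0.92), Pdlim1 (0.92) and Itgb3 (0.92), and Treml1 to Pdlim1 (0.93), Itga2b and Clu (0.90). Itgb3 was closest to Pdlim1 (0.93), Gp5 to Bgn (0.88), Ptgs1 (0.88) and Atp2a3 (0.86), and Gp9 to Sh3bgrl3 (0.95), Dlgap4 (0.95) and Cst3 (0.94). Tubb1 had the weakest neighbours, Tmem140 (0.84), Nfe2 (0.84) and Itga2b (0.84). Clec1b was closest to Gng11 (0.95), Chchd3 (0.91) and Ttc27 (0.90). In DR+/+ replicate 4, Gng11 at 12.29 and Chchd3 at 10.40 were the highest of the 4 DR+/+ arrays, as Clec1b was. Ttc27 at 9.30 was not, with 9.59 and 9.54 in replicates 1 and 2. Pdlim1 at 9.18, Ptgs1 at 7.16 and Nfe2 at 8.31 were the lowest of the 4 in replicate 4. DR+/+ replicate 4 was among the 53 arrays used to pick these genes, so their likeness to the members there is partly built in. Over the other 52 arrays Clec1b was closest to Myl9 (0.95), Gng11 (0.95) and Uba7 (0.94), so Gng11 was found without that array too. In DR+/+ replicate 4, Myl9 at 10.02 was the lowest of the 4, unlike Gng11. Uba7 was at 6.58 there and at 6.33 in replicate 3.

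Other platelet genes were counted in 5 lists. Bulk RNA does not tell which cells of a culture gave it, so these counts cannot be assigned to platelets alone. With d60 DR+/+ against autologous serum 0 of 9 measured adhesion receptors were called, with 9 of 9 negative and a median of -0.62, and 0 of 18 cytoskeletal genes. These counts stand beside 0.377% of all probe sets called lower and 0.97% called higher. Of 25 signalling genes and enzymes 3 were called lower, the ATP receptor P2rx1 (-1.46, limma adjusted p = 0.0453), the thrombin receptor subunit F2rl2 (-1.35, 0.0170) and the cyclooxygenase Ptgs1 (-1.42, 0.0353). Of 13 granule proteins 1 was called lower, multimerin Mmrn1 (-1.52, 0.0141), and of 10 megakaryocyte transcription factors 1 was called higher, Runx1 (0.99, 0.00163), a gene that lymphocytes also express. All list counts with DR+/+ serum include its replicate 4, and counts without that array are not given here. Ptgs1 was at 7.16 in it and at 9.13, 9.18 and 8.89 in replicates 1 to 3. Second-set autologous arrays had Ptgs1 from 9.32 to 10.52. With d60 DRlyp/lyp against autologous serum 0 genes of the 5 lists were called. Against allogeneic serum, where 12.2% of all probe sets were called lower and 13.3% higher, DR+/+ serum gave 6 lower and 0 higher of 9 adhesion receptors and 8 lower and 3 higher of 25 signalling genes. It gave 3 lower and 1 higher of 13 granule proteins, 2 lower and 2 higher of 10 transcription factors, and 3 lower and 2 higher of 18 cytoskeletal genes. DRlyp/lyp serum against allogeneic serum, where 9.38% of all probe sets were called lower and 12.1% higher, gave 4 lower and 1 higher of 9 adhesion receptors and 2 lower and 1 higher of 25 signalling genes. The other lists had 1 lower and 0 higher of 13 granule proteins, 1 lower and 0 higher of 10 transcription factors, and 5 lower and 2 higher of 18 cytoskeletal genes.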

How the data were processed

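The authors deposited 1 table of log2 expression values per probe set for 53 arrays, and the submitters' processing notes name RMA and Partek 6.2. What each was used for is not stated. RMA compresses differences near background. The table held 31099 probe sets, of which 57 controls were left out and 31042 tested. The annotation gave 1 symbol for 20826, several for 436 and none for 9780. The highest correlation of any 2 arrays was 0.9963. The number of arrays limits the precision.

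Values were used as deposited. Means of the 10 combinations of 8 groups and 2 array sets were fitted to all 53 arrays with limma 3.58.1 in R 4.3.3, with a variance trend, and 15 comparisons were adjusted by Benjamini-Hochberg over 31042 probe sets. Intervals are 95% and use limma's moderated SE. The fit was tested on simulated data. Plots came from matplotlib 3.10.9 (Python 3.11.15).

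The 7 genes and the 12 gene lists were chosen with earlier results of these data known. All 7 genes are described. Similar genes are the 3 named genes with the highest r, and from a list up to 4 called genes with the largest change are eligible for naming. The array sets were taken from earlier work on these data, not from labels, and clustering of the same values was only compared with them. Numbers were taken to pair arrays where every same-numbered pair correlated above 0.1 in residuals, which held for d60 DRlyp/lyp with DR+/+ serum (lowest r 0.175), d40 IL-1RA with d40 PBS serum (0.401) and d40 IL-1RA with autologous serum (0.129). The main fit did not use this pairing, which entered only the fits with the replicate number as a block. Alternatives were quantile normalisation, median centring, a filter at the median mean, no variance trend, array weights, other sample subsets and blocks, an actin covariate, an adjusted p under 0.01 and leaving out each array.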

Additional observations from a re-analysis of the deposited data

Results flagged for a closer look

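Among 56 checks of a gene within a group of 4 or 6 arrays, 8 had an array whose gap to its neighbour was large against the group's range, and chance gives about 1 in 20 groups. All 8 were low arrays. The 7 genes correlate over the same arrays and some arrays recur below, so the checks are not independent. The count of 8 of 56 therefore cannot be weighed against 1 in 20. With d60 DRlyp/lyp serum, replicate 3 stood off for Gp5 at 5.92, the next array being at 6.99, and for Treml1 at 9.62, the next at 10.84. With d60 DRlyp/lyp serum plus IL-1RA, replicate 3 stood off for Tubb1 at 12.37, in a group whose range ended at 12.63. With d60 DR+/+ serum, replicate 4 stood off for Gp5 at 5.26, the next at 6.74, and for Tubb1 at 10.51, the next at 12.31. In the IL-1B cultures replicate 3 stood off for Itga2b at 10.44, the next at 11.94. In the first-set autologous cultures replicate 1 stood off for Itga2b at 10.46, the next at 11.31, and for Clec1b at 11.71, the next at 13.05.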

How the results depend on the processing

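Among 1050 values of a gene in a comparison under other settings, 1020 kept their direction and side of the threshold or were uncalled in both, 18 lost a call, 12 gained 1 and 0 reversed; uncalled differences changed sign in 51. Over 53 fits that left out 1 array, 1214 of 1232 did so, 13 lost a call and 5 gained 1. Most of these values were uncalled in the main fit and had no call to lose. Under other settings, Gp5 stayed called in 5 of 10 for d60 DR+/+ against autologous serum. Against allogeneic serum Gp5 stayed called in 9 of 10 with DR+/+ and 9 of 10 with DRlyp/lyp serum. With DR+/+ against allogeneic serum, Treml1 stayed called in 6 of 10 and Itgb3 in 4 of 10. Between the autologous sets Gp5 stayed in 7 of 7 and Treml1 in 6 of 7. The counts of the 7 genes called ran from 0 to 3 without 1 array for d60 DR+/+ against autologous serum, from 1 to 3 for d60 DR+/+ against allogeneic serum, from 0 to 1 for d60 DRlyp/lyp against allogeneic serum and from 1 to 3 for autologous serum, first against second set. For d60 DR+/+ against autologous serum (1 of 7) the count was 0 with the actin covariate, at an adjusted p under 0.01, with the array set ignored, with array weights, within the second set and with the 2 groups only, and 2 with the set as a block and with the filter on low means. For d60 DR+/+ against allogeneic serum (3 of 7) it was 1 with the actin covariate, at 0.01, with array weights and with the 2 groups only, 0 with the set ignored and 5 with quantile normalisation. For d60 DRlyp/lyp against allogeneic serum (1 of 7) it was 0 at 0.01 and with the set ignored and 2 with quantile normalisation. For autologous serum, first against second set (2 of 7), it was 4 with the actin covariate, 1 at 0.01, 1 with median centring and 3 with the 2 groups only. Allogeneic against autologous serum gave 1 in either set with the set ignored and 2 in the first set with array weights. The cause of these shifts was not tested.

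With the replicate number as a block (paired fits), 0 of 7 genes were called in the 7 comparisons that allowed it. The main fit had called 0 of 7 in each of these, so the block had no call to lose. Every comparison with a called gene had too few shared replicate numbers for such a fit. So had d60 DRlyp/lyp serum, with or without IL-1RA, and IL-1B against autologous serum. Whether second-set autologous replicates match those of other groups in their order was not tested. The blocked differences ran from -0.24 to 0.56 for d60 DRlyp/lyp against DR+/+ serum (limma adjusted p 0.684 to 0.939) and from -0.06 to 0.30 for d40 IL-1RA against d40 PBS serum (0.283 to 0.977). Over all probe sets, d60 DR+/+ against autologous serum called 418, and 43 to 1118 without 1 array, 1955 with array weights and 0 with the 2 groups only; d60 DRlyp/lyp against allogeneic serum called 6683, and 1530 to 9184 without 1 array. The number of arrays limits precision most for Gp9, with a residual SD of 0.86.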
